A study of Mus musculus with 8 samples.

Results

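The arrays of this series carry replicate number 02 or 03 at the end of their titles, and the comparison described here sets the 4 arrays of number 03 against the 4 of number 02. The members are 8 of the 8 arrays of the series, and each array of number 03 was paired with the array of number 02 from the same genotype and treatment group. What the number stands for, whether a culture, an extraction, a passage or a day, is unstated in the labels. A state of the cultures is therefore not a label of these samples, and the arrays are called here by their numbers.

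RNA came from lines of mouse embryonic fibroblasts, matrix-making cells taken from the embryo, that had immortalised spontaneously in culture. The Stat3 WT line (STAT3+/+) carried both copies of the transcription factor gene Stat3, and the Stat3 KO line (STAT3-/-) carried neither. Both lines grew in DMEM with 10% heat-inactivated calf serum, 2 mM glutamine, penicillin and streptomycin. Each was left untreated or given oncostatin M (OSM), an interleukin-6 type cytokine, at 20 ng/ml for 30 minutes. The 4 groups are Stat3 WT untreated, Stat3 WT with OSM, Stat3 KO untreated and Stat3 KO with OSM, with 1 array of each number in each group. The treatment was taken from the titles, since the growth text names OSM for every sample. Each genotype is 1 line, so a difference between the genotypes cannot be told apart from any other difference between these lines. Nothing in the labels ties an array to a separate culture. The p-values therefore reflect only how far these arrays scatter, and that scatter may be technical.

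As background, cells that sense interferon or foreign nucleic acid switch on interferon-stimulated genes, which encode antiviral effectors, the guanylate-binding and immunity-related GTPases and the machinery of antigen presentation. Dividing cells transcribe DNA replication genes in S phase and mitotic genes in G2 and M phase, and these genes fall in fibroblasts that leave the cell cycle, as in dense or serum-poor cultures. Resting fibroblasts in turn raise matrix proteoglycans and genes named for growth arrest. Immediate early genes such as Fos respond within minutes to serum, cytokines, stress or handling.

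Each value is a probe set's log2 expression after GCRMA, and a difference of 1 is a 2-fold change. The numbers differed at 41.1% of the 6756 probe sets tested, which represent 5195 genes. Of these probe sets 1582 (23.4%) were higher and 1193 (17.7%) lower on the arrays of number 03, at an adjusted p under 0.05 in limma with each array paired to its partner. The lowest array of one number lay above the highest of the other for 1485 probe sets (22%) higher in 03 and for 1118 (16.5%) lower. A difference of at least 1 in each of the 4 pairs held for 372 probe sets (5.51%) higher and 246 (3.64%) lower, which are 253 and 178 genes. Over all genes 1175 were called higher and 918 lower, with a median difference of 0.08. These are 22.6% and 17.7% of the genes, and the count of any list below has to be read against those shares. After quantile normalization or median centring the median over all genes was -0.05 or -0.02, and the share of calls that were higher fell from 57% to 47.1% or 47.7%, so directions of differences near 0 depend on the scaling. Leaving out any 1 Stat3 WT array lowered the count of 2775 called probe sets to between 1223 and 1246. Leaving out Stat3 KO untreated 02 or 03 gave 1671 or 1699.

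Technical readings moved with the number too. The 19 bacterial and yeast control probe sets, which should have no target in these samples and read at most 4.46, were all higher in 03 without overlap, by 0.22 to 0.58. Of the 9 spiked hybridisation controls 7 were lower in 03 without overlap, and the mean differences of the 9 ran from -2.76 to -0.13. The 18S ribosomal RNA control was higher in 03 by 3.63 at its 3' end. Beta-actin was brighter at its 3' than at its 5' probes by 0.33 to 0.53 in 02 and by 0.72 to 1.11 in 03, a gap that widens as RNA degrades. The same gap for Gapdh overlapped, at 0.03 to 0.11 in 02 and 0 to 0.27 in 03. Dim probe sets (mean under 7) were called higher in 30.4% and lower in 11.9% of cases, and bright ones (mean over 13) in 17.9% and 20.2%. The part of these readings in the gene differences was not tested. Of the fibroblast markers, Col1a1, Col1a2, Col3a1, Dcn, Fn1, S100a4, Pdgfra and Pdgfrb reached log2 5 on all 8 arrays, while Thy1 and Vim were below it on all 8. The summed level of the 11 fibroblast markers was 16.89 to 17.50 in 02 and 17.56 to 18.06 in 03. Of the 9 tested, 8 had a difference above 0, while Pdgfrb fell in each pair. It went from 10.92 to 10.60 and 9.35 to 8.60 in Stat3 WT (untreated, then OSM), and from 11.62 to 10.27 and 11.24 to 9.83 in Stat3 KO. Of the epithelial markers none reached 5 on all arrays, and the summed leukocyte level overlapped between the numbers (10.72 to 11.38 and 10.28 to 11.87), with Ptprc, Cd68 and Cd3e below 5 throughout. Of that list Csf1r (8.80 to 10.20) and Cd14 (9.34 to 11.62) were above 5 on all 8 arrays. So were Myog and Actc1 of the muscle, Tubb3 and Mbp of the neural, Pecam1 and Cd34 of the endothelium and Lpl and Scd1 of the adipocyte markers. Myog was lower in 03 without overlap, at 8.43 to 9.66 in 02 and 7.19 to 7.65 in 03. The levels are of bulk RNA, so fewer cells of a kind and less RNA per cell cannot be told apart. Stat3 itself did not separate the numbers, with a difference of 0.18 ± 0.18 (SE, limma adjusted p = 0.467). Its brightest probe set gave 10.11 and 11.82 in 02 and 10.50 and 11.94 in 03 in the Stat3 WT line, and 8.08 and 8.70 in 02 and 7.81 and 9.17 in 03 in the Stat3 KO line. A second probe set read 2.76 to 2.94 on 3 Stat3 KO arrays but 7.30 on Stat3 KO OSM 03. Where the deletion lies with respect to these probes is unstated in the labels.

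The programme with the largest median rise was that of interferon. Promoter sequences of 3 genes of it and of 3 mitotic genes are shown here. The programmes were taken because they had the largest median differences in opposite directions. Within them, genes were picked that differed by at least 1 in each pair and whose promoter already held the motif searched. For the mitotic genes both motifs had to be present. The matches in the promoters shown therefore follow from that choice and are not a result. The sequences are the 250 bases before the start site from RefSeq (GRCm38.p6), 5' to 3' on the gene's strand, and capitals mark motif matches on either strand. For the interferon genes the motif is the interferon-stimulated response element, searched as GAAA, any 2 bases and GAAA again, which STAT and IRF factors are known to bind. Ifit3 lies at chr19:34583279-34583528 (plus strand), Ifit1 at chr19:34640639-34640888 (plus strand) and Igtp at chr11:58199306-58199555 (plus strand).
Ifit3: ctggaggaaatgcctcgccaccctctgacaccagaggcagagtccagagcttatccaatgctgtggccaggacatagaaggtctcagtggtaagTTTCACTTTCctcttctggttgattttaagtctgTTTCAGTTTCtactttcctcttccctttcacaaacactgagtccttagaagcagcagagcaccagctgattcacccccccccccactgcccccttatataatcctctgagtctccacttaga
Ifit1: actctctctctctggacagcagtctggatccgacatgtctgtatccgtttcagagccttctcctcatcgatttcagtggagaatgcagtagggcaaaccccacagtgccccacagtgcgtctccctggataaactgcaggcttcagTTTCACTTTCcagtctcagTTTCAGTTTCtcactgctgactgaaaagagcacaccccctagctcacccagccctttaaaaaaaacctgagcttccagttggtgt
Igtp: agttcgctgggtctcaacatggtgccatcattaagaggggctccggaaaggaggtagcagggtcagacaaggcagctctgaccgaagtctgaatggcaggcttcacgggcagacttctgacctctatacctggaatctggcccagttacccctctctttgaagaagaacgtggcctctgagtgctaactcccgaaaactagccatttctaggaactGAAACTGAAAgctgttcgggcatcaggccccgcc

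For the mitotic genes the capitals mark the cell cycle homology region core TTTGAA and the CCAAT box, motifs bound in such promoters by the MuvB complex and by NF-Y. Kif11, a spindle motor, lies at chr19:37376132-37376381 (plus strand). Cdc20, an activator of the anaphase-promoting complex, lies at chr4:118437344-118437593 (minus strand). Ccnb2, a mitotic cyclin, lies at chr9:70421555-70421804 (minus strand).
Kif11: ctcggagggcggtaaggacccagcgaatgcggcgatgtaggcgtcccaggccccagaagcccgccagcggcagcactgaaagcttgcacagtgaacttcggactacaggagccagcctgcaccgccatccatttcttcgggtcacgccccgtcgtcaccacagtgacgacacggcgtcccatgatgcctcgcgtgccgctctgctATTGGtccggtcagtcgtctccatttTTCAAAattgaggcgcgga
Cdc20: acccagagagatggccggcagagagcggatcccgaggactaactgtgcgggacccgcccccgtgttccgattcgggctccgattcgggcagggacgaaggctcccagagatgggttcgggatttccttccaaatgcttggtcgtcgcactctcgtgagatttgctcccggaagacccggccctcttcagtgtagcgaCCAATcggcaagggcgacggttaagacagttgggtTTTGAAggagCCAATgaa
Ccnb2: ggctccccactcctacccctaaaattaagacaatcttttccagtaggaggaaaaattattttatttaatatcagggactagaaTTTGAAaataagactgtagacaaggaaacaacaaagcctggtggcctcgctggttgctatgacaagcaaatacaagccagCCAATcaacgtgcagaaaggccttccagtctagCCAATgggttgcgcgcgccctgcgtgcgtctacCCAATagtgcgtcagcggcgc

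The response element was matched in 8 of the 30 interferon-stimulated genes with a promoter in the table (26.7%) and in 6 of 7 interferon-inducible GTPases (85.7%). It was matched in 2.73% of the tested genes and in 3.04% of all RefSeq promoters of that length. Among the genes higher by at least 1 in all 4 pairs it was matched in 17 of 187 (9.09%), and among those lower in 1 of 147 (0.68%). CCAAT was matched in 26 of 34 mitotic genes (76.5%) against 36.7% of tested genes and 34.5% of all promoters, and TTTGAA in 13 of them (38.2%) against 11% and 16.3%. Neither motif was particular to the mitotic list. CCAAT was matched in 14 of 15 cholesterol genes (93.3%), 24 of 41 DNA replication genes (58.5%) and 7 of 10 antigen presentation genes (70%), and TTTGAA in 4 of 7 interferon-inducible GTPases (57.1%). TTTGAA was matched in 24 of 147 genes (16.3%) lower in all 4 pairs and in 31 of 187 (16.6%) higher. CCAAT and TTTGAA can overlap when 1 is read on the other strand. A match is only a description of these letters in this window.

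Of the 36 interferon-stimulated genes tested, 25 rose, none fell and 11 did not pass, and all 36 differences were above 0. The median difference was 2.78, against 0.08 over all genes. Usp18, a protease that removes Isg15 from proteins and damps interferon signalling, read 1.66, 2.14, 4.33 and 2.48 on the arrays of 02 and 8.56, 8.73, 12.15 and 13.16 on those of 03 (every list of 4 values runs in the order Stat3 WT untreated, Stat3 WT OSM, Stat3 KO untreated, Stat3 KO OSM). No array of 02 reached log2 5 and every array of 03 lay above 8, so the numbers did not overlap and the exact size rests on values near background. The difference was 8.0 ± 0.70 (SE, limma adjusted p = 0.00316). Ifit3, a binder of foreign RNA, read 3.31, 2.88, 4.12 and 7.05 in 02 and 10.54, 10.25, 13.51 and 14.98 in 03, a difference of 7.98 ± 0.39 (SE, limma adjusted p = 0.00255). Ifit1, of the same family, read 2.98, 4.08, 6.18 and 8.35 in 02 and 11.54, 12.22, 13.44 and 14.63 in 03, a difference of 7.56 ± 0.40 (SE, limma adjusted p = 0.00255). These are the promoters with 2 response element matches shown above. Within each number the Stat3 KO arrays read higher than the Stat3 WT arrays for both genes. Isg15, a ubiquitin-like modifier, was already bright in 02 at 9.85, 11.06, 11.25 and 12.06, and reached 12.97, 13.70, 15.25 and 15.76 in 03. Its numbers also did not overlap, and the difference was 3.36 ± 0.24 (SE, limma adjusted p = 0.00292). Lgals3bp, a secreted glycoprotein, differed by 4.90 ± 0.40 (SE). Outside the list, Gm9706, read by a probe set that may match several genes, differed by 6.86 ± 0.44. The members with the smallest differences were Isg20 (0.14 ± 0.22, SE), Samhd1 (0.60 ± 0.66) and Pml (0.87 ± 0.43), none of which passed.

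The interferon-inducible GTPases, which act on vacuoles of intracellular pathogens, rose in 9 of 10 members, with a median of 3.41. Igtp read 5.40, 7.72, 4.96 and 12.58 in 02 and 10.12, 12.30, 13.04 and 14.97 in 03, a difference of 4.94 ± 0.87 (SE, limma adjusted p = 0.0106). The array of Stat3 KO with OSM in 02 was already as bright as the arrays of 03, so the numbers overlapped although each pair rose. The same array stood out for Irgm2, which read 6.63, 8.54, 6.13 and 12.32 in 02 and 10.37, 10.88, 12.51 and 13.52 in 03. Mx2, a dynamin-like antiviral GTPase, did not show this pattern, with 4.95, 4.94, 5.05 and 4.42 in 02 and 7.93, 6.46, 9.74 and 11.77 in 03. Gbp2 had the smallest difference of the family, 1.75 ± 0.21 (SE), and still passed. Without that array, whose partner then adds nothing to the paired fit, 21 of the 36 interferon-stimulated genes and 9 of the 10 GTPases rose.

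Sensors and components upstream of these genes moved less. In the list of interferon ligands, sensors and receptors 5 of 13 rose, Usp18 among them, and none fell. Ifih1, the cytosolic RNA sensor MDA5, differed by 4.43 ± 0.53, the receptor chain Ifnar2 by 1.58 ± 0.29, the kinase Tbk1 by 1.51 ± 0.21 and the kinase Jak1 by 0.95 ± 0.12 (SE each). The receptor chains Ifnar1 and Ifngr2 gave -0.45 ± 0.15 and -0.04 ± 0.19 (SE) and did not pass. Antigen presentation genes rose in 7 of 12 members, with a median of 1.48. H2-K1, a class I heavy chain, read 7.99, 8.26, 9.21 and 9.74 in 02 and 10.22, 10.77, 13.99 and 14.08 in 03, and the peptide transporter gene Tap1 differed by 3.42 ± 0.44 (SE). Probe sets of the class I genes may share signal between near-identical members. Tapbp, the chaperone that loads class I molecules, differed by 0.09 ± 0.10 (SE) and did not pass. Chemokines rose in 7 of 12 members. The neutrophil attractant Cxcl5 read 7.33, 10.59, 8.02 and 9.78 in 02 and 14.01, 15.17, 11.93 and 12.52 in 03, and its difference was 4.48 ± 0.61 (SE, limma adjusted p = 0.00639). In the NF-kB pathway list 2 genes rose and 4 fell of 16, with a median of 0.02. Nfkbia, an inhibitor of NF-kB, rose by 1.38 ± 0.21 and Il6 by 3.12 ± 0.92, while the subunits Nfkb2 and Rela gave -1.13 ± 0.21 and -0.93 ± 0.23 (SE each) and also passed.

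**Figure D1:**
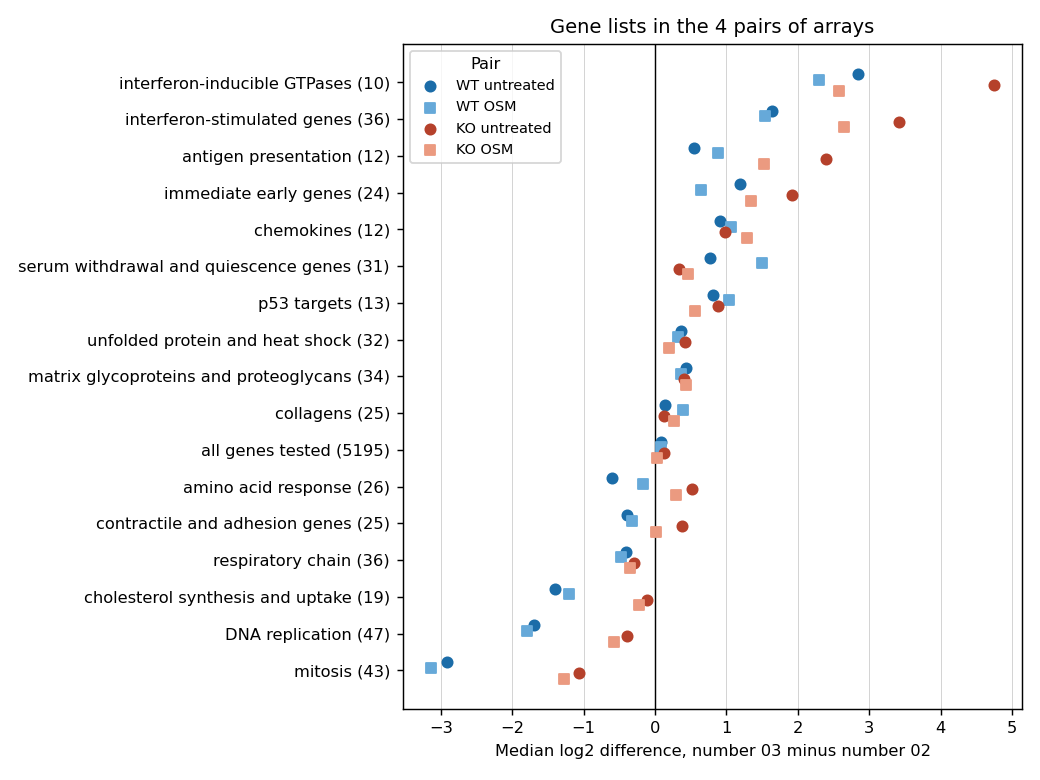
Median log2 difference (number 03 minus number 02, x axis) of each gene list (y axis, with the number of genes tested) in each of the 4 pairs of arrays, blue for Stat3 WT and red for Stat3 KO, circles for untreated and squares for OSM. The interferon-stimulated and GTPase lists lie to the right in every pair (medians 1.54 to 4.75), and mitosis to the left in every pair, further in Stat3 WT (-2.92 and -3.14) than in Stat3 KO (-1.06 and -1.28).

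Immediate early genes rose in 14 of 24 members and fell in 1, with a median of 1.41. Fos, a subunit of the AP-1 transcription factor, read 2.70, 3.09, 2.70 and 5.67 in 02 and 7.95, 7.75, 10.04 and 13.05 in 03, a difference of 6.16 ± 0.53 (SE, limma adjusted p = 0.00316). In 02 it was near background on 3 arrays, whereas all arrays of 03, untreated ones included, had a clear signal. Ptgs2, the inducible cyclooxygenase, differed by 3.98 ± 0.70, the MAP kinase phosphatase Dusp1 by 2.63 ± 0.37, Atf3 by 2.35 ± 0.27 and the mRNA-decay factor Zfp36 by 2.18 ± 0.41 (SE each). Jun and Klf4 gave -0.14 ± 0.16 and 0.15 ± 0.27 (SE) and did not pass. Without the array of Stat3 KO OSM 02, 12 members rose and 2 fell.

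Mitotic genes made up the programme with the largest median fall. Of 43 tested, 31 fell, none rose and 12 did not pass, with a median of -2.25, and 33 were lower on every array of 03 than on any array of 02. Kifc1, a kinesin that focuses spindle poles, read 10.11, 8.74, 8.82 and 6.50 in 02 and 1.87, 1.53, 2.67 and 2.37 in 03, a difference of -6.43 ± 0.66 (SE, limma adjusted p = 0.00412). It was read by a probe set that may match several genes and went from a clear signal to background in all 4 groups. With values under 5 set to 5 the difference was -3.54. Cenpa, the centromeric histone, read 10.28, 9.93, 9.81 and 9.56 in 02 and 5.48, 5.79, 6.68 and 6.21 in 03, a difference of -3.85 ± 0.32 (SE, limma adjusted p = 0.00316). The arrays of a number lay close together here and the numbers were far apart. Kif2c, a microtubule depolymerase of the centromere, differed by -4.08 ± 0.59, the transcription factor Mybl2 by -3.53 ± 0.55 and Cdca8, of the chromosomal passenger complex, by -3.34 ± 0.90 (SE each). Dlgap5, Aspm and the cyclin Ccnf, proliferation genes outside that list, differed by -4.35 ± 0.43, -3.87 ± 0.35 and -4.58 ± 0.78 (SE). Of the genes with promoters shown above, Kif11, Cdc20 and Ccnb2 differed by -3.19, -2.84 and -2.82. Cdk1, the mitotic kinase, read 13.40, 13.30, 12.36 and 11.80 in 02 and 10.00, 9.33, 10.98 and 10.57 in 03, a difference of -2.50 ± 0.52 (SE, limma adjusted p = 0.0165). Top2a, which untangles chromosomes, differed by -2.25 ± 0.58, and Mki67, a proliferation marker, by -1.30 ± 0.33 (SE). Leaving out any 1 Stat3 WT array ended the calls of Top2a (limma adjusted p = 0.0805 to 0.101) and Mki67 (0.0788 to 0.0999). For Cdk1 the adjusted p was 0.0516 to 0.066 without Stat3 WT untreated 02 or 03 or Stat3 WT OSM 02, and 0.0499 without Stat3 WT OSM 03. Hmgb2, Smc4 and Kif22 gave -0.02 ± 0.26, 0.15 ± 0.25 and -0.34 ± 0.24 (SE) and did not pass. Signal remained on the arrays of 03, since Cdk1, Top2a and Mki67 stayed above 8 on all of them. Without the array of Stat3 KO OSM 02 the count of mitotic genes that fell was again 31.

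DNA replication genes fell in 23 of 47 members and rose in 4, with a median of -1.04. Mcm5, of the replicative helicase, read 11.56, 11.82, 11.32 and 10.59 in 02 and 6.61, 5.87, 9.87 and 9.22 in 03, a difference of -3.43 ± 0.87 (SE, limma adjusted p = 0.0278). Mcm2 differed by -1.90 ± 0.22, the polymerase subunits Pold1 and Pold2 by -2.55 ± 0.40 and -2.28 ± 0.30, and thymidine kinase Tk1 by -2.37 ± 0.52 (SE each). Chek1, Rfc3 and Orc6 differed by at most 0.04 in size and did not pass. Among cyclins, CDK inhibitors and pocket proteins 5 of 18 rose and 2 fell. The cyclin Ccnd2, the inhibitor Cdkn1b and the pocket proteins Rbl2 and Rb1 rose by 2.86 ± 0.73, 1.44 ± 0.23, 1.70 ± 0.33 and 1.62 ± 0.37 (SE), and Cdk4 fell by 1.58 ± 0.16. Ccnd1 and Cdkn2a did not pass (-0.88 ± 0.57 and -0.42 ± 0.38, SE). Of the p53 target genes 6 of 13 rose and 1 fell. The death receptor Fas and the antiproliferative Btg2 rose by 2.12 ± 0.25 and 1.99 ± 0.53 (SE). The probe sets of Cdkn1a read 2.42 to 2.99 and 0.41 to 1.48 over all arrays and were not tested.

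**Figure D2:**
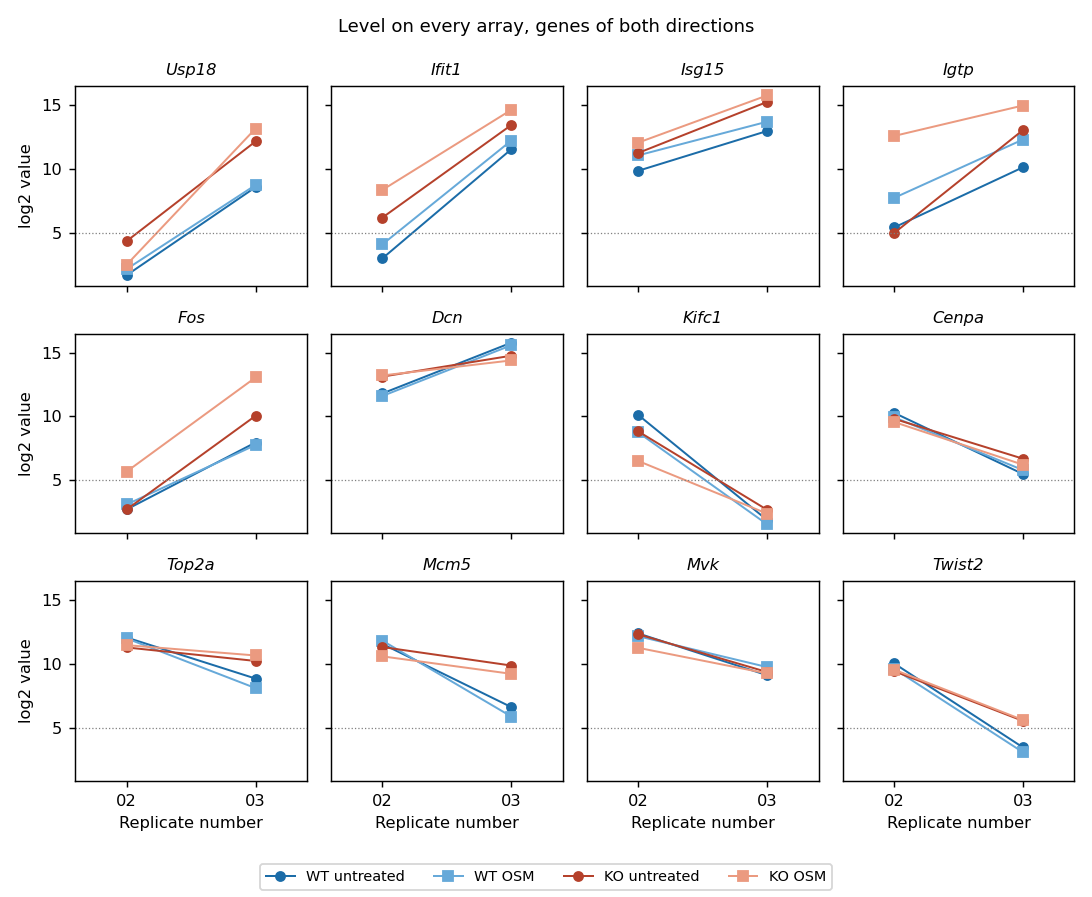
Log2 value (y axis) of 12 genes on each array, with a line joining the arrays of number 02 and number 03 (x axis) in each of the 4 groups, and a dotted line at the filter value of 5. Usp18, Ifit1, Isg15, Igtp, Fos and Dcn are higher in 03 in each group and Kifc1, Cenpa, Top2a, Mcm5, Mvk and Twist2 lower, with Igtp of Stat3 KO OSM 02 already at 12.58.

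Matrix and resting-cell genes rose in part. Of the serum withdrawal and quiescence genes 12 of 31 rose and 1 fell, with a median of 0.84. Dcn, the proteoglycan decorin, read 11.80, 11.60, 13.12 and 13.21 in 02 and 15.78, 15.58, 14.76 and 14.39 in 03, a difference of 2.70 ± 0.55 (SE, limma adjusted p = 0.0157). The numbers did not overlap, and the rise was larger in the Stat3 WT line. Gas6, a ligand of the TAM receptors, and Gas2, both named for growth arrest, rose by 2.56 ± 0.56 and 2.16 ± 0.15 (SE). The thioredoxin inhibitor Txnip and the mineralisation inhibitor Mgp did not pass (0.01 ± 0.18 and 0.11 ± 0.22, SE). Of the matrix glycoproteins and proteoglycans 12 of 34 rose and 2 fell, with a median of 0.34. Nid2, a basement membrane linker, read 4.21, 3.64, 3.61 and 3.79 in 02 and 10.60, 10.66, 9.38 and 8.66 in 03, a difference of 6.01 ± 0.37 (SE, limma adjusted p = 0.00255). Its relative Nid1 rose by 2.29 ± 0.29, Ogn, another small proteoglycan, by 3.75 ± 0.59, and the laminin chain Lama4 by 2.52 ± 0.20 (SE). Perlecan (Hspg2) and the laminin chain Lamc1 gave -0.01 ± 0.22 and -0.05 ± 0.16 (SE). Collagens moved little, with 4 of 25 higher and 2 lower. Col3a1 rose by 1.24 ± 0.25 and Col7a1 fell by 1.67 ± 0.46 (SE). For Col1a1 the brightest probe set gave 0.44 ± 0.14 (SE, limma adjusted p = 0.0514), but a second one gave -2.15 (limma adjusted p = 0.00363), so its probe sets disagree. Among contractile and adhesion genes 1 of 25 rose and 3 fell, and smooth muscle actin Acta2 gave 0.31 ± 0.20 (SE). Fn1 gave 0.25 ± 0.15 (SE) and did not pass either.

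Among the metabolic lists the medians lay furthest below 0 for respiratory chain and cholesterol genes, while stress and antioxidant genes were called higher more often than lower. Respiratory chain genes fell in 15 of 36 members and rose in 1, with a median of -0.46. The ATP synthase subunits Atp5e and Atp5o, the cytochrome oxidase subunit Cox7a2 and the succinate dehydrogenase subunit Sdhd gave differences of -1.05 ± 0.15, -1.0 ± 0.16, -0.98 ± 0.13 and -0.97 ± 0.15 (SE), and all 4 passed. Cytochrome c (Cycs) was the 1 that rose, by 1.29 ± 0.19 (SE). Cholesterol genes fell in 7 of 19 members and rose in 1, with a median of -0.54. Mevalonate kinase (Mvk) read 12.39, 12.17, 12.32 and 11.26 in 02 and 9.11, 9.75, 9.36 and 9.25 in 03, a difference of -2.67 ± 0.24 (SE, limma adjusted p = 0.00322). Fdps and Mvd, later enzymes of the same route, gave -1.72 ± 0.30 and -1.67 ± 0.29 (SE) and passed, whereas Hmgcs1 and Msmo1 gave 0.09 ± 0.17 and 0.19 ± 0.31 and did not pass. Fatty acid genes divided, 4 of 19 higher and 6 lower, with a median of -0.04. Lipoprotein lipase (Lpl), which is also an adipocyte marker, rose by 2.78 ± 0.23 and the fatty acid carrier Fabp5 fell by 2.24 ± 0.39 (SE). Glycolysis and hypoxia genes, with 4 of 25 higher and 5 lower and a median of -0.09, were near the background shares. In the unfolded protein and heat shock list 12 of 32 rose and 1 fell. The co-chaperone Dnajb9 read 7.29, 7.22, 7.05 and 7.93 in 02 and 11.02, 10.74, 10.61 and 10.38 in 03, a difference of 3.32 ± 0.26 (SE, limma adjusted p = 0.00292), while Hsp90b1, Hspa9 and Pdia4 stayed within 0.06. Antioxidant genes rose in 8 of 24 members and fell in 1. The microsomal transferase Mgst1 rose by 1.77 ± 0.16 and the superoxide dismutase Sod2 by 0.95 ± 0.15, while Sod1 fell by 1.08 ± 0.10 (SE). Ribosomal proteins, proteasome and lysosome genes gave medians of 0.22, 0.01 and -0.11.

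Some of the largest differences lay outside these lists. Fez1, an adaptor of kinesin transport, read 4.33, 4.65, 5.71 and 4.59 in 02 and 12.98, 12.87, 9.94 and 9.60 in 03, a difference of 6.53 ± 0.83 (SE, limma adjusted p = 0.00537). A dimmer probe set of it gave 1.02 (adjusted p = 0.058). Gm4788, Car12 (a membrane carbonic anhydrase) and Vnn1 (a pantetheinase) rose by 5.78 ± 0.23, 4.72 ± 0.48 and 5.12 ± 0.99 (SE). The probe set of Gm4788 may match several genes, and Vnn1 rose by 2.82 in Stat3 WT and 7.41 in Stat3 KO. Twist2, a mesenchymal bHLH transcription factor, read 10.04, 9.62, 9.43 and 9.55 in 02 and 3.45, 3.07, 5.53 and 5.60 in 03, a difference of -5.25 ± 0.58 (SE, limma adjusted p = 0.00435). It was even across the 4 arrays of 02 and low on each of 03. Iqgap3, a scaffold of proliferating cells, differed by -5.76 ± 0.78, 2610528A11Rik by -5.56 ± 0.31 and the semaphorin receptor Plxna2 by -4.37 ± 0.57 (SE each). Selenoh, a nuclear selenoprotein, differed by -4.25 ± 0.57, Rnaseh2b, a subunit of ribonuclease H2, by -3.99 ± 0.27 and Myt1l by -4.11 ± 0.61 (SE each). The sizes for Iqgap3 and Plxna2 rest on values below 5, and with those set to 5 they were -3.29 and -2.21. Of the growth factor genes Vegfb fell by 2.62 ± 0.19 and Kitl and Tgfb2 rose by 2.11 ± 0.43 and 1.60 ± 0.25 (SE).

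The next question was whether the numbers differed alike in both lines. The spread of the pair differences over probe sets was 1.33 and 1.31 in the Stat3 WT pairs, 1.21 in Stat3 KO untreated and 0.99 in Stat3 KO with OSM. In the fit with a difference per line, limma called 3131 probe sets (46.3%) in Stat3 WT and 1928 (28.5%) in Stat3 KO. Both lines called 1442, which is 1380 in the same direction (44.1% of the Stat3 WT calls and 71.6% of the Stat3 KO calls) and 62 in opposite directions. Without 1 of the Stat3 WT arrays the Stat3 WT count was 440 to 630 and the Stat3 KO count 744 to 813. Without Stat3 KO untreated 02 or 03 the Stat3 KO count was 537 or 647. The test of the difference between the lines called 378 probe sets (5.6%), 222 (3.29%) with the greater value in Stat3 KO and 156 (2.31%) with the greater value in Stat3 WT. That test leaves 2 residual degrees of freedom. Leaving out any 1 array, of either line, leaves 1. Without any 1 Stat3 WT array there were 0 calls. Leaving out Stat3 KO untreated 02 or 03 gave 228 or 251, and leaving out Stat3 KO OSM 02 or 03 gave 180 or 184. Every call between the lines named below therefore rests on having all 4 Stat3 WT arrays. Whether the difference between the numbers itself changed with OSM was tested in a fit with a difference per treatment and none per line. In it limma called 0 probe sets, with 99 at an unadjusted p under 0.05. Differences between the lines count as scatter in that fit, and its median SE was 0.43, against 0.31 in the test between the lines. The 0 calls therefore cannot be set beside the 378. The effect of OSM on expression was not tested here.

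**Figure D3:**
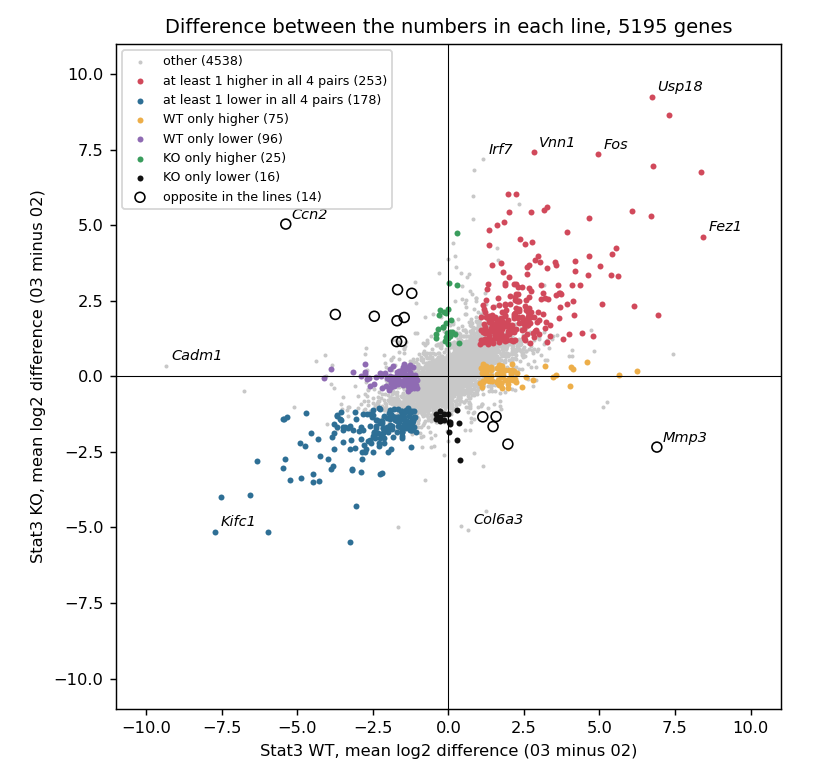
Mean log2 difference (number 03 minus number 02) in the Stat3 WT line (x axis) and in the Stat3 KO line (y axis), 1 point per gene, coloured by whether the difference was at least 1 in all 4 pairs or in both pairs of 1 line while under 0.5 in size in the other, with rings for opposite directions. The 253 and 178 genes of all pairs lie in the upper right and lower left, and Cadm1, Mmp3 and Ccn2 lie far off the diagonal.

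By the pair values, 75 genes were higher by at least 1 in both Stat3 WT pairs while under 0.5 in size in both Stat3 KO pairs, and 40 of them passed the test between the lines. In the other direction 96 genes were lower in Stat3 WT alone by that measure, 43 of which passed. For Stat3 KO alone the counts were 25 higher (14 passed) and 16 lower (5 passed). A further 14 genes moved by at least 1 in opposite directions in the lines, 5 of them higher in Stat3 WT and lower in Stat3 KO, and all 14 passed. These groups were formed on the same pair differences that the test uses, so the choice itself favours passing. Over all probe sets the test called 5.6%.

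Of the matrix protease list 6 of 21 genes were called higher in Stat3 WT, against 1262 of all 5195, and 3 passed the test between the lines. Mmp3, stromelysin, read 5.26 and 4.83 in 02 and 11.73 and 12.16 in 03 in Stat3 WT, but 9.38 and 9.07 in 02 and 6.70 and 7.06 in 03 in Stat3 KO (untreated first, here and in the rest of this comparison). It rose by 6.90 ± 0.31 in the first line and fell by 2.34 ± 0.31 in the second (SE), and the difference between them was -9.24 ± 0.44 (SE, limma adjusted p = 0.0046). The collagenase Mmp13 read 3.87 and 5.54 in 02 and 8.32 and 11.62 in 03 in Stat3 WT, and stayed at 3.85 to 5.90 in Stat3 KO. Lum, the proteoglycan lumican, read 2.56 and 2.61 in 02 and 8.04 and 8.43 in 03 in Stat3 WT and at most 3.29 on every Stat3 KO array. Gdf10, a BMP-like ligand, read 3.90 and 3.89 and then 10.63 and 9.64 in Stat3 WT, and 3.95 to 4.25 in Stat3 KO. The complement regulator Cd55 read 4.34 and 4.24 and then 9.37 and 8.42 in Stat3 WT, and at most 4.94 in Stat3 KO. For Lum, Gdf10 and Cd55 the Stat3 WT arrays of 03 were the only ones above 5. The differences between the lines were -5.62 ± 0.33 for Lum, -6.08 ± 0.41 for Gdf10 and -4.13 ± 0.39 for Cd55 (SE, limma adjusted p = 0.00986, 0.0126 and 0.014). Enpep, an aminopeptidase of angiotensin processing, and Fndc1 gave -6.13 ± 0.95 and -4.32 ± 0.37. With values under 5 set to 5, Lum gave -3.24 and kept its call, while Enpep (-3.44, limma adjusted p = 0.0734) and Mmp13 (-5.15, adjusted p = 0.053) lost theirs. Sfrp2, a secreted Wnt modulator, moved in opposite directions, by 1.97 ± 0.25 and -2.24 ± 0.25 (SE).

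The largest fall in the Stat3 WT line was that of Cadm1, a cell adhesion molecule. It read 12.11 and 11.48 in 02 and 2.69 and 2.24 in 03 in Stat3 WT, against 10.69 and 10.46 in 02 and 11.21 and 10.63 in 03 in Stat3 KO. At this probe set, which may match several genes, the signal went to background on both Stat3 WT arrays of 03 and was level on the Stat3 KO arrays. The difference between the lines was 9.68 ± 0.29 (SE, limma adjusted p = 0.00271). Of 2 further probe sets of Cadm1, 1 gave 7.53 (adjusted p = 0.00452) and the other 1.92 (adjusted p = 0.0634). The latter kept its signal in Stat3 WT, at 8.92 and 9.33 in 02 and 8.55 and 8.37 in 03, so the probe sets disagree on the loss. Ccn2, connective tissue growth factor, read 11.33 and 10.04 in 02 and 6.27 and 4.33 in 03 in Stat3 WT, and 3.47 and 8.71 in 02 and 10.38 and 11.88 in 03 in Stat3 KO. It fell by 5.38 ± 0.87 in the first line and rose by 5.04 ± 0.87 in the second (SE), the largest of the differences between the lines among the named genes at 10.42 ± 1.22 (SE, limma adjusted p = 0.0204). Tagln, the actin-binding protein transgelin, moved the same way, from 10.03 and 9.83 to 6.37 and 6.01 in Stat3 WT and from 9.09 and 10.65 to 11.69 and 12.14 in Stat3 KO. Cdc6, which loads the replicative helicase, fell from 7.64 on both arrays to 3.46 and 3.07 in Stat3 WT and stayed at 5.48 to 6.33 in Stat3 KO. Gstk1, a mitochondrial glutathione transferase, read 7.99 and 7.39 and then 3.80 and 3.79 in Stat3 WT, and was near background on every Stat3 KO array. With values under 5 set to 5 the differences between the lines were 3.13 for Cdc6 in place of 4.87 and 2.69 for Gstk1 in place of 4.15. Igf1 and Ly6e gave opposite directions at 1 probe set each (4.55 ± 0.35 and 4.44 ± 0.24 between the lines, SE), but a second probe set of each gave 0.80 and -0.15 and did not pass. Id1, an inhibitor of bHLH factors, gave 4.81 ± 1.01 (SE) and did not pass (adjusted p = 0.0656).

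Genes that were higher in 03 in the Stat3 KO line included interferon-linked and antigen presentation genes. Irf7, the master regulator of type I interferon genes, read 2.94 and 3.05 in 02 and 9.63 and 10.71 in 03 in Stat3 KO, and 2.94 and 3.02 in 02 and 3.45 and 4.83 in 03 in Stat3 WT. The Stat3 KO arrays of 03 were the only ones above 5, and the difference between the lines was 6.01 ± 0.58 (SE, limma adjusted p = 0.0144). Over all groups its difference of 4.17 ± 1.30 (SE) passed narrowly (adjusted p = 0.0488), and not after quantile normalization (0.064), with values under 5 set to 5 (a difference of 2.59, adjusted p = 0.116) or without any 1 array of Stat3 WT OSM, Stat3 KO untreated or Stat3 KO OSM (0.0729 to 0.153). Cd74, the class II invariant chain, read 3.61 and 3.38 in 02 and 8.22 and 8.27 in 03 in Stat3 KO and at most 3.52 in Stat3 WT, a difference of 4.47 ± 0.30 (SE, limma adjusted p = 0.0126). In the interferon-stimulated list 34 of 36 genes were called higher in Stat3 KO and 21 in Stat3 WT, against 800 and 1262 of all 5195 genes. Of that list 5 genes passed the test between the lines, each with the greater rise in Stat3 KO. These were Irf7, Ifih1, Mx1, Ifi35 and the RNA-activated kinase Eif2ak2. Mx1 rose by 5.98 in Stat3 KO and gave 0.83 in Stat3 WT, while Eif2ak2 gave 2.20 and -0.26. The lipopolysaccharide-binding protein Lbp, the lectin Lgals9 and the monoglyceride lipase Mgll gave differences between the lines of 4.20 ± 0.30, 3.95 ± 0.38 and 3.54 ± 0.33 (SE). The immediate early genes Fos and Nr4a1 had the greater value in Stat3 KO too, by 2.40 and 4.26 (limma adjusted p = 0.0289 and 0.0133). Among the genes that fell in Stat3 KO, Col6a3, a collagen VI chain, read 13.59 and 13.99 in 02 and 8.77 and 8.66 in 03, and 6.30 to 7.66 in Stat3 WT. Angpt2, a vascular growth factor, read 8.85 and 7.26 and then 3.59 and 3.6, and the phosphatase Ptpn22 9.28 and 8.39 and then 3.85 and 3.93, both near background on the Stat3 WT arrays. The differences between the lines were -5.73 ± 0.50, -5.70 ± 0.70 and -5.35 ± 0.41 (SE, limma adjusted p = 0.0133, 0.0222 and 0.0126). A second, related probe set of Ptpn22 gave -0.20 and did not pass. The potassium channel Kcnk2 and keratin Krt16 gave -4.13 ± 0.32 and -3.17 ± 0.33 (SE), and the brighter probe set of Evi2a -3.39 ± 0.64 without passing (adjusted p = 0.0522). The dimmer probe set of Evi2a gave -5.66 (adjusted p = 0.0126). With values under 5 set to 5, Angpt2 gave -3.06 and Krt16 -1.68, and Krt16 lost its call (adjusted p = 0.0595).

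**Figure D4:**
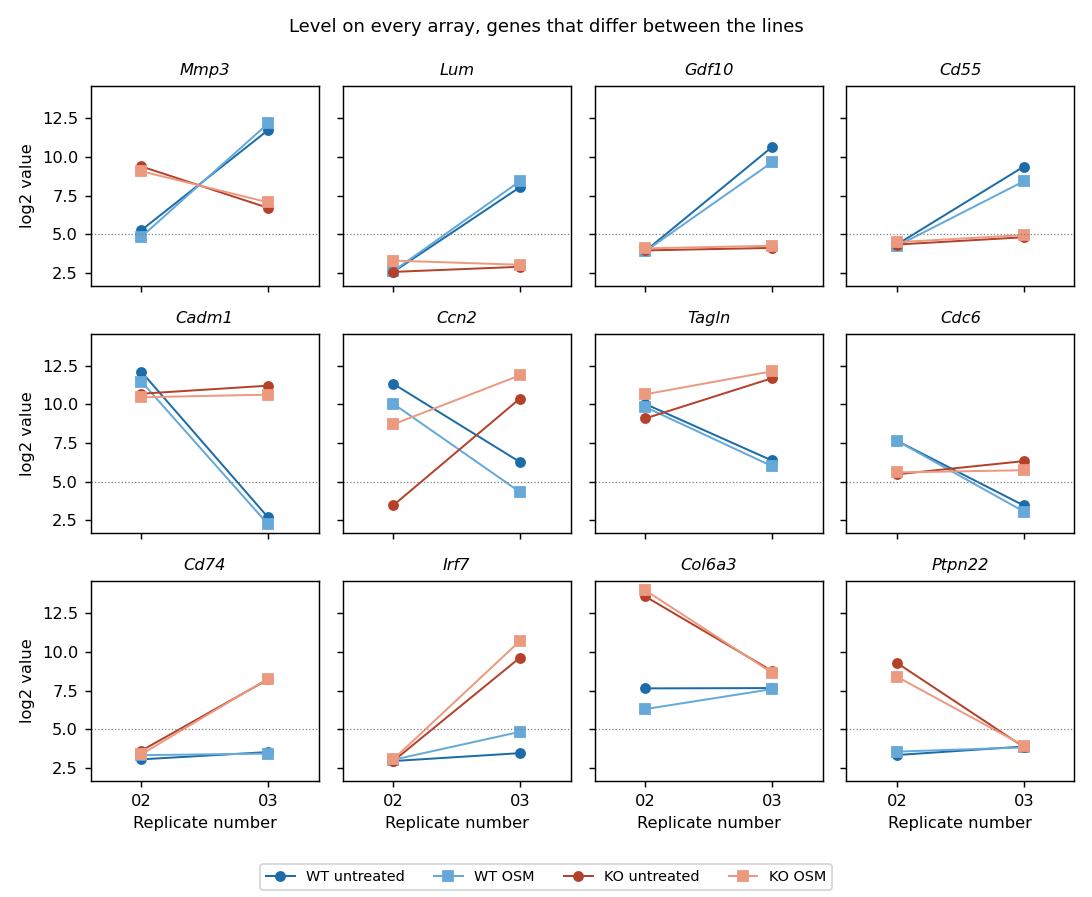
Log2 value (y axis) of 12 genes on each array by replicate number (x axis), with a line for each of the 4 groups and a dotted line at the filter value of 5. The blue Stat3 WT lines and the red Stat3 KO lines cross or part in each panel, for example Cadm1, which falls from 12.11 and 11.48 to 2.69 and 2.24 in Stat3 WT and stays between 10.46 and 11.21 in Stat3 KO.

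Whole programmes also differed in size between the lines. The mitotic median was -2.92 and -3.14 in the Stat3 WT pairs and -1.06 and -1.28 in the Stat3 KO pairs, and 21 of the 43 genes passed the test between the lines, all with the lower value in Stat3 WT. Cdca8 gave -5.35 in Stat3 WT, which passed, and -1.33 in Stat3 KO, which did not. Top2a gave -3.56 and -0.93 and passed in both, with a difference of 2.63 ± 0.32 (SE, limma adjusted p = 0.0219). Kifc1 and Cenpa did not pass that test. DNA replication genes had medians of -1.70 and -1.79 in Stat3 WT and -0.39 and -0.58 in Stat3 KO, and 14 of 47 passed, each with the lower value in Stat3 WT, Mcm5 and Tk1 among them. Cholesterol genes had medians of -1.40 and -1.21 against -0.11 and -0.23, with 4 of 19 passing (Fdps, Idi1, Dhcr7 and Tm7sf2). Amino acid response genes gave -0.60 and -0.17 in Stat3 WT and 0.52 and 0.30 in Stat3 KO. Of them 4 of 26 passed. These were asparagine synthetase (Asns), with a difference of 1.63, Gars, Slc7a5 and Psph, each with the lower value in Stat3 WT. Among growth factor and IGF genes 6 of 34 had the greater value in Stat3 KO (Igf1, Igf1r, Igfbp2, Igfbp4, Bmp4 and Vegfc) and 3 in Stat3 WT (Fgfr1, Igfbp3 and Pdgfra). Over all genes 177 and 119 of 5195 passed in these directions.

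Placing the genes along the chromosomes showed a further difference between the lines. The 5187 genes with a place in the RefSeq order were cut into 198 blocks of about 25 neighbours, a step chosen after the data had been seen. In the Stat3 KO line no block had a median difference of 1 or more in both pairs. In the Stat3 WT line 3 blocks did, and all of them are on chromosome 8. In the other direction 1 block, from Banf1 to Plcb3 on chromosome 19, had -1.04 and -1.11 in the Stat3 WT pairs and -0.66 and -0.29 in the Stat3 KO pairs. The block from Mt1 to Hsf4 had medians of 1.83 and 1.72 in the Stat3 WT pairs and -0.24 and -0.20 in the Stat3 KO pairs. Its neighbour from Gcdh to Mt2 had 1.17 and 1.21 against 0.02 and 0.05, and the block from Cdc16 to Ash2l had 1.20 and 1.20 against 0.27 and 0.02. Over all blocks the mean of both pairs ran from -1.08 to 1.77 in Stat3 WT and from -0.49 to 0.98 in Stat3 KO.

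The 2 adjoining chromosome 8 blocks differed in how the Stat3 WT arrays lay against the Stat3 KO arrays. Against the mean of the 4 Stat3 KO arrays, the block from Mt1 to Hsf4 read -1.66 and -1.89 on the Stat3 WT arrays of 02 and 0.12 and 0.14 on those of 03. The block from Gcdh to Mt2 read -1.0 and -0.73 on those of 02, but also 0.44 and 0.41 on those of 03. Such values on the Stat3 WT arrays of 03 were not particular to this block. The block from Kcnj3 to Pdk1 on chromosome 2 read 0.78 and 0.72 there, and that from Cul2 to Rprd1a on chromosome 18 read 0.75 and 0.70. Of the 50 genes of both blocks, 33 were lower on both Stat3 WT arrays of 02 than on any Stat3 KO array, and 16 were higher on both Stat3 WT arrays of 03 than on any Stat3 KO array, 8 genes being in both counts. The same counts were not made over all genes, so whether these are unusual cannot be told. The 2 blocks were picked after their Stat3 WT medians had been seen, so the next counts follow in part from that choice. Of the 50 genes of these blocks 31 were at least 1 higher in 03 in both Stat3 WT pairs, against 14.8% of all genes, and 3 were so in both Stat3 KO pairs. The test between the lines called 20 of the 50, against 5.6% of all probe sets tested. Arl2bp, a partner of a small GTPase, read 11.46 and 11.03 in 02 and 13.53 and 13.46 in 03 in Stat3 WT, and 14.33 and 13.94 in 02 and 14.08 and 13.79 in 03 in Stat3 KO. Coq9, of ubiquinone synthesis, read 9.92 and 9.64 and then 12 and 11.50 in Stat3 WT, and 11.44 to 12.31 in Stat3 KO. Nup93, a nuclear pore protein, read 9.09 and 9.54 and then 11.25 and 11.89 in Stat3 WT, and 10.99 to 11.29 in Stat3 KO. In these 3 genes the Stat3 WT arrays of 02 were below all others. Man2b1, a lysosomal mannosidase, also rose in Stat3 WT, with 11.47 and 11.23 and then 12.64 and 12.89, and read 10.82 to 11.69 in Stat3 KO. For Man2b1 it was the Stat3 WT arrays of 03 that stood apart, above all others. Other genes moved little, and Gcdh, Vps35 and Mt1 differed by less than 0.5 in both Stat3 WT pairs. Of the 75 genes higher in Stat3 WT alone, 25 are on chromosome 8 (8.68% of its 288 genes), 15 of them in these 2 blocks, and on the other chromosomes the share was 0% to 3.08%. On chromosome 15 the medians were below 0, -0.37 and -0.42 in Stat3 WT and -0.07 and -0.08 in Stat3 KO, with 13 of the 96 genes lower in Stat3 WT alone. DNA copy number was not measured in these samples, and its part in these differences was not tested.

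**Figure D5:**
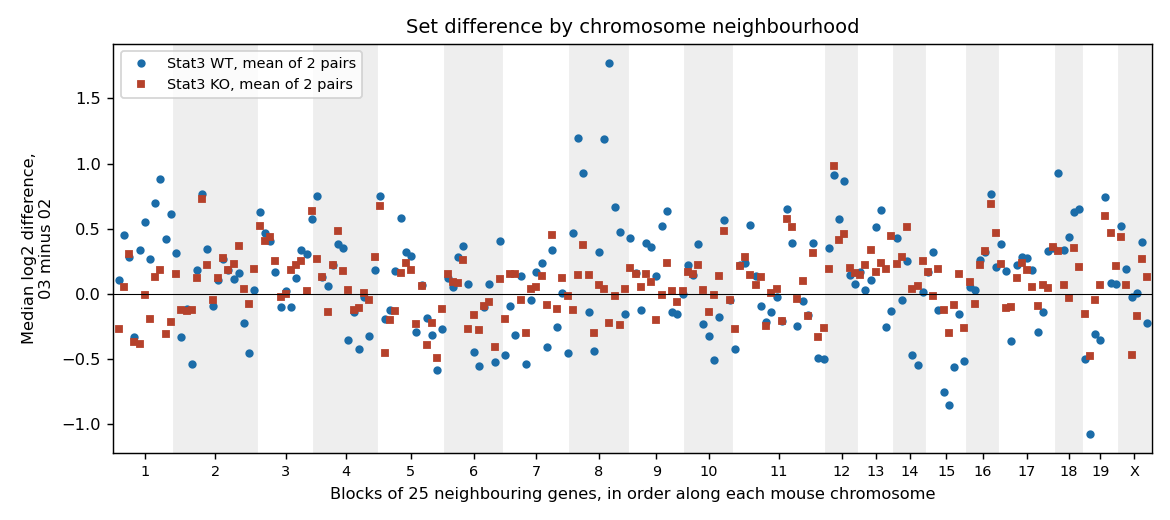
Median log2 difference (number 03 minus number 02, y axis) of blocks of about 25 neighbouring genes in order along each mouse chromosome (x axis), as the mean of both pairs of the Stat3 WT line (blue circles) and of the Stat3 KO line (red squares). The 3 blue points above 1 are on chromosome 8, the highest at 1.77, while the red points run from -0.49 to 0.98.

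The array of Stat3 KO with OSM in number 02 lay nearer to number 03 than the other arrays of 02 in several of these genes. Igtp read 12.58 there against 4.96 to 7.72 on the others, Fos 5.67 against 2.70 to 3.09 and Myt1l 6.62 against 9.63 to 9.88. For Fos, Stat3 KO with OSM was the highest group in 03 too, at 13.05. Its pair difference of 7.38 was like the 7.33 of Stat3 KO untreated, so the Fos reading follows the group. Differences in that pair were at least 1 for 780 probe sets higher and 516 lower, fewer than the 1256 to 1321 higher and 782 to 992 lower of the other pairs. With this array left out, 2592 probe sets separated the numbers.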

How the data were processed

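The authors deposited log2 values, 1 per probe set and array. The submitters' processing notes name GCRMA and affy, without versions. Whether the arrays were normalized jointly is unstated. Biotin-labelled RNA was hybridised to Affymetrix arrays, per the labels' protocols. GCRMA holds dim probe sets near a floor, which enlarges differences from it. Scanner files were not used here, and the number of arrays limits the precision.

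Groups and numbers come from the titles. Of 12488 probe sets, 66 controls were set aside and 6756 with a log2 value of at least 5 on at least 2 arrays were kept. A gene is its kept probe set with the highest mean, among 10833 with 1 symbol (396 have several and 1193 none). Of these, 10817 matched RefSeq (GRCm38.p6), used for names, gene order and promoters.

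limma 3.58.1 in R 4.3.3 (lmFit, eBayes with an intensity trend, two-sided, Benjamini-Hochberg over all kept probe sets) fitted 4 group means, which pair the arrays, and the number (3 residual degrees of freedom), or the number per line or per treatment (2). Errors are limma standard errors. An exact sign test over 4 pairs cannot give a p below 0.125. The fits were checked on simulated data. Pair differences correlated at 0.9106 within Stat3 WT, 0.7935 within Stat3 KO and 0.589 to 0.6638 across lines, over probe sets.

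The comparison and the 39 gene lists were chosen with earlier results of these data known. Named were up to 12 genes per direction called without overlap and at least 1 in each pair, up to 8 per direction and line with the largest difference between the lines, up to 5 called and 3 flattest members per list, and fixed genes. Genes named beyond that rule, among them those passing between the lines within a list, other members of a list and those of the chromosome blocks, were chosen after their values were seen. Alternatives were other filters, eBayes settings, normalizations, a floor, 1 probe set per gene, other designs and leaving out each array.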

Additional observations from a re-analysis of the deposited data

Results flagged for a closer look

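In 4 of 72 checks 1 array stood apart from the other 3 of its replicate number by a gap above Dixon's critical value. The 4 arrays of a number come from different groups, and chance gives such a gap in about 1 of 20 groups. Stat3 KO OSM 02 read 8.27 for Gm9706 with the next array at 4.35, 5.67 for Fos with the next at 3.09, and 6.62 for Myt1l with the next at 9.63. Stat3 KO OSM 03 read 3.50 for Iqgap3 with the next at 2.28.

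The difference between numbers 03 and 02 itself differed between the lines for 34 of the named genes, by limma's test of the Stat3 KO minus the Stat3 WT difference (adjusted p under 0.05). With its sign kept, it was higher in Stat3 KO for Ccn2 by 10.42, Cadm1 by 9.68, Irf7 by 6.01, Tagln by 5.79, Cdc6 by 4.87, Vnn1 by 4.59, Igf1 by 4.55, Cd74 by 4.47, Ly6e by 4.44 and Lbp by 4.20. The same held for Gstk1 by 4.15, Lgals9 by 3.95, Mgll by 3.54, Ccnf by 3.53, Iqgap3 by 3.51, Kif2c by 2.65, Twist2 by 2.64, Top2a by 2.63, Fos by 2.40 and Cdk1 by 2.38. Such a value can come from a deeper fall in Stat3 WT, as for Cadm1 (-9.33 in Stat3 WT and 0.35 in Stat3 KO). The signed difference was lower in Stat3 KO for Mmp3 by -9.24, Enpep by -6.13, Mmp13 by -6.10, Gdf10 by -6.08, Col6a3 by -5.73, Angpt2 by -5.70, Lum by -5.62, Ptpn22 by -5.35, Fndc1 by -4.32, Sfrp2 by -4.21, Cd55 by -4.13, Kcnk2 by -4.13, Fez1 by -3.82 and Krt16 by -3.17. That can come from a fall in Stat3 KO, as for Col6a3 (0.65 in Stat3 WT and -5.08 in Stat3 KO). None of these calls was kept when a Stat3 WT array was left out.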

How the results depend on the processing

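Over all groups 2775 probe sets separated the numbers. Without the filter on dim values 7210 did and with a size of at least 1 required 1565 did, and leaving out each array gave 1223 to 2599. With arrays not paired by group (no replicate block) the count was 2465, so the pairing moved it by less than 1.5 times, although Irf7 lost its call (adjusted p = 0.0581) and Col1a1 gained one (0.0416). In Stat3 WT the count of 3131 became 7511 without the filter, 2081 with a size of at least 1 and 440 to 3573 with an array left out. In Stat3 KO the 1928 became 5232 without the filter and 537 to 1926 with an array left out. The 378 calls between the lines became 7 without the filter and 0 to 251 with an array left out. With 1 array of either line left out that test has 1 residual degree of freedom. The cause of these changes was not tested. The difference between the lines for Ly6e turned from 4.44 to -0.15 at its other probe set. The other counts stayed within 1.5 times, and the test of whether the difference between the numbers changed with OSM gave 0 calls under each alternative run. That test was not run with a difference per line. Values near the GCRMA floor limit the size of differences that start or end there.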
